A study of Mus musculus with 31 samples.

Results

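Matrix metalloproteinases (MMPs) and their tissue inhibitors (TIMPs) were followed as 10 genes in mouse Panc02 pancreatic cancer cells, namely Mmp2, Mmp3, Mmp9, Mmp10, Mmp13, Mmp14, Mmp15, Timp1, Timp2 and Timp3. They were chosen by gene symbol, and all 10 were listed in each of 3 deposited count tables, out of 55487 to 56980 genes per table. The RNA-sequencing data comprised 31 samples in 11 groups from 3 experiments. The cell line labels of the 10 overexpression samples carry running numbers in place of Panc02, and the study's methods were followed in calling them Panc02. In the 2D/3D experiment, WT cells and Cxcl5-/- cells were each grown as a monolayer (2D) or as spheroids (3D), with 3 samples per group. In the overexpression experiment every sample was a spheroid culture, with 2 WT samples, 2 Cxcl5-/- samples, 3 samples of Cxcl5-/- cells carrying a mutant (stabilised) Hif1a (Hif1aOE Cxcl5-/-) and 3 samples of Cxcl5-/- cells carrying Myc (MycOE Cxcl5-/-). In the conditioned medium experiment, WT spheroids received control medium (Ctrl), medium from unstimulated bone marrow-derived macrophages (M0-CM) or medium from macrophages stimulated with IFNγ and then LPS (M1-CM), with 3 samples each.

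Spheroids were formed under low attachment and then embedded in Matrigel, a basement membrane extract that is itself a substrate for several MMPs. The Cxcl5-/- cells were made with a lentiviral CRISPR vector carrying a single guide and puromycin selection, and the number of clones or independently edited lines was not given in the sources used here. Both overexpression lines were built on the Cxcl5-/- cells with a retroviral vector, so they share that deletion and that vector. No WT or Cxcl5-/- sample was labelled as carrying an empty retroviral vector. In comparisons with those samples, the inserted gene and the vector step cannot be told apart. The labels do not say whether the samples of a group came from separate cultures, so the p-values measure only the spread between these samples, which may be technical.

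MMPs are zinc-dependent endopeptidases that are made as inactive proenzymes and, once their prodomain is removed, cut extracellular matrix proteins and other extracellular substrates. TIMPs bind the active site of MMPs and block it, and TIMP2 has a second role at the cell surface, where it helps the membrane-bound protease MMP14 to activate the MMP2 proenzyme. In tumours these proteases are known for matrix remodelling and invasion, and many are also made by stromal fibroblasts and by myeloid cells. Transcript levels do not report protease activity, which also depends on proenzyme cleavage and on the inhibitors.

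The libraries held between 41542533 and 78498230 counts. Levels are given as CPM, the usual scaling of counts to a common library size, computed from the deposited counts with TMM-scaled library sizes, and 3 counts were taken as the floor of detection. In the 2D/3D experiment, Cxcl5 RNA did not pass the test between 2D Cxcl5-/- and 2D WT cells (log2 fold change −0.47, edgeR adjusted p = 0.0705). It was higher in the 3D Cxcl5-/- than in the 3D WT libraries (0.91, edgeR adjusted p = 0.000173). It was lower in Cxcl5-/- than in WT spheroids of the overexpression experiment (−0.78, edgeR adjusted p = 0.00107). Counts over the whole gene report neither the edit nor the protein. The study's methods state that the knockout was checked by immunoblot for CXCL5. Every direction below refers to the libraries as labelled. Myc rose in the MycOE Cxcl5-/- libraries (4.54, edgeR adjusted p = 1.93e-08), whereas Hif1a rose by similar amounts in the Hif1aOE (0.94) and the MycOE libraries (0.90) and did not pass the test between them (−0.04, edgeR adjusted p = 0.826). Of epithelial markers, Epcam and Cdh1 stayed at or below 0.61 CPM in every library while the keratin Krt8 reached 134 to 648 CPM. The macrophage marker list summed to 28.0 to 76.7 CPM, carried by Cd14, Cd68 and Lyz2, whereas Adgre1, Itgam, C1qa and Csf1r were each at or below 0.72 CPM in every library.

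The genes Mmp13, Mmp3 and Mmp10 lie within a cluster of 10 MMP genes on chromosome 9 (positions 7272514 to 7699585 of GRCm38, 427.1 kb). Their promoter sequences are shown because all 3 rose in Hif1aOE Cxcl5-/- against Cxcl5-/- spheroids, although they differed in other comparisons. Each runs from 250 bases before to 50 bases after the transcription start (RefSeq, GRCm38.p6, forward strand), and the capitals mark the match to TGANTCA, a binding motif of AP-1 transcription factors in which N is any base.
Mmp13 (chr9:7272264-7272563): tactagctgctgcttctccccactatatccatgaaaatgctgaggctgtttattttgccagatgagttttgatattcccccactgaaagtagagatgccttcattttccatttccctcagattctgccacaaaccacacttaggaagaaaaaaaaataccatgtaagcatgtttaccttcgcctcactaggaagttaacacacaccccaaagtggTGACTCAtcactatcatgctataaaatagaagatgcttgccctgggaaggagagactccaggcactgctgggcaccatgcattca
Mmp3 (chr9:7445572-7445871): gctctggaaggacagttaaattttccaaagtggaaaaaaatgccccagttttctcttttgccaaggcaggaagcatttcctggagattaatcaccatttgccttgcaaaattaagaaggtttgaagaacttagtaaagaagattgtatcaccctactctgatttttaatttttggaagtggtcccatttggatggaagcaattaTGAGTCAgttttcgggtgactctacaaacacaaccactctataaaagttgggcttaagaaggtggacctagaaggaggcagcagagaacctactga
Mmp10 (chr9:7502092-7502391): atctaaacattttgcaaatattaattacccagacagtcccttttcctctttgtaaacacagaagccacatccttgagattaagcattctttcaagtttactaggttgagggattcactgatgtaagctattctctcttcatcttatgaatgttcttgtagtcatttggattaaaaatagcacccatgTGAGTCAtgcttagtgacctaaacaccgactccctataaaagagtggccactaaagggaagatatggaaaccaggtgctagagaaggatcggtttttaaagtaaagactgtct

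Of the 10 members, 8 had a promoter in the RefSeq table, and Mmp2 and Mmp9 did not. TGANTCA reads the same on both strands and was present in the Mmp13, Mmp3 and Mmp10 promoters, starting 35, 46 and 63 bases before the start site, and in none of the other 5. It was present in 7.81% of all 32851 promoters. The core motif of HIF factors, ACGTG on either strand, was present in the Mmp14 and Timp1 promoters and in 19.6% of all promoters. The E-box CACGTG, which contains that core, was present in 0 of the 8 promoters and in 7.15% of all. These matches describe the letters in these windows and are not evidence of binding.

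The first question was how the members differed between monolayer and spheroid culture. Mmp9, encoding gelatinase B, showed the largest change of the members that held counts in both cultures. In WT cells it was at 0.674, 0.259 and 0.765 CPM in 2D and at 27.5, 15.6 and 19.6 CPM in 3D. The groups did not overlap, and the difference was 37.1-fold (log2 fold change 5.21 ± 0.41 SE, edgeR adjusted p = 2.72e-07). In Cxcl5-/- cells it was at 0, 0 and 0.0770 CPM in 2D and at 4.62, 6.67 and 6.23 CPM in 3D, again without overlap (7.72 ± 0.60, edgeR adjusted p = 1.44e-07). Most 2D Cxcl5-/- libraries therefore held no Mmp9 count, and the fitted size of that change rests on very few counts.

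Mmp2, encoding gelatinase A, behaved differently in the 2 genotypes. In WT cells it was at 1.35, 1.70 and 1.64 CPM in 2D and at 1.45, 0.864 and 1.27 CPM in 3D, overlapping ranges that did not pass the test (−0.38 ± 0.18, edgeR adjusted p = 0.103). In Cxcl5-/- cells it was at 12.8, 12.3 and 11.5 CPM in 2D and at 23.1, 26.0 and 28.7 CPM in 3D. All 3D samples were above all 2D samples (1.09 ± 0.15, edgeR adjusted p = 3.05e-05).

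The stromelysin Mmp3 and the collagenase Mmp13, which cut a wide range of matrix proteins and fibrillar collagen respectively, were not detected in any 2D library. In 3D WT cells Mmp3 was at 0.368, 0.490 and 0.332 CPM, at least 8.35-fold above the 3-count floor of the 2D WT group (edgeR adjusted p = 8.47e-05). In 3D Cxcl5-/- cells it was at 1.42, 0.745 and 1.02 CPM, at least 22.9-fold higher than in 2D (edgeR adjusted p = 1.12e-05). Every 3D sample thus held Mmp3 counts and no 2D sample did. Mmp13 in 3D was at 0.252, 0.397 and 0.240 CPM in WT, at least 6.23-fold higher than in 2D (edgeR adjusted p = 0.00902), and at 0.189, 0.277 and 0 CPM in Cxcl5-/-, at least 3.36-fold higher (edgeR adjusted p = 0.0154). The second stromelysin, Mmp10, held counts in 2 of 12 libraries of this experiment, both 3D WT (0.194 and 0.387 CPM), and was too low to be tested.

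The membrane-type proteases stay anchored to the cell surface. Mmp14, the more abundant of them, did not pass the test between 3D and 2D in WT (−0.16 ± 0.09, edgeR adjusted p = 0.176) or in Cxcl5-/- cells (0.18 ± 0.09, edgeR adjusted p = 0.106), with all libraries between 54.2 and 84.4 CPM. In Cxcl5-/- cells every 3D library lay above every 2D library (71.8 to 84.4 against 67.2 to 69.4 CPM). This difference passed in DESeq2 (DESeq2 adjusted p = 0.0499), with its size factors, with library totals and with 10 counts in every sample. Mmp15 moved in opposite directions in the 2 genotypes. In WT cells it was at 1.12, 0.993 and 1.02 CPM in 2D and lower in 3D, at 0.426, 0.257 and 0.166 CPM (−1.87 ± 0.50, edgeR adjusted p = 0.00726). In Cxcl5-/- cells it was at 0.104, 0.467 and 0.247 CPM in 2D and higher in 3D, at 1.15, 2.90 and 2.44 CPM (2.99 ± 0.49, edgeR adjusted p = 0.00015). Neither pair of groups overlapped.

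Of the inhibitors, Timp1 also moved in opposite directions. In WT cells it rose from 39.8, 36.0 and 39.5 CPM in 2D to 66.4, 54.2 and 61.8 CPM in 3D (0.66 ± 0.12, edgeR adjusted p = 0.000442). In Cxcl5-/- cells it fell from 33.8, 35.6 and 29.5 CPM to 22.7, 16.4 and 20.1 CPM (−0.74 ± 0.12, edgeR adjusted p = 0.00014). Timp2 was higher in 3D in both genotypes, by 0.40 ± 0.12 in WT (edgeR adjusted p = 0.0114) and by 0.43 ± 0.12 in Cxcl5-/- (edgeR adjusted p = 0.00595). The 2D and 3D groups of Timp2 did not overlap in WT cells (128 to 133 against 159 to 185 CPM), whereas in Cxcl5-/- cells the lowest 3D library (165 CPM) lay within the 2D range of 147 to 167 CPM. Timp3, which binds to the extracellular matrix, passed the test in Cxcl5-/- cells only (1.82 ± 0.65, edgeR adjusted p = 0.028, against −0.54 ± 0.73, edgeR adjusted p = 0.588 in WT), and the difference between these changes did not pass its own test (2.37 ± 0.97, edgeR adjusted p = 0.0894). The Cxcl5-/- call was lost without any 2D Cxcl5-/- library or without 3D Cxcl5-/- replicate 2 or 3 (edgeR adjusted p up to 0.102).

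Counted over the members, 5 of the 9 tested were higher and 1 lower in 3D than in 2D WT cells, beside 22.2% higher and 22% lower (44.3% in all) among all genes tested. In Cxcl5-/- cells 7 were higher and 1 lower, beside 28.7% higher and 28.2% lower (57% in all). The median log2 fold change of the tested members was 0.40 in WT and 1.82 in Cxcl5-/- cells, beside 0.00 and 0.11 over all genes tested. Mmp3 and Mmp13, which are among the higher members in both genotypes, held no counts in any 2D library. They passed the count filter only through 3D libraries and could only be called higher. Their fitted values also enter the medians, so these tallies were partly fixed in advance.

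**Figure D1:**
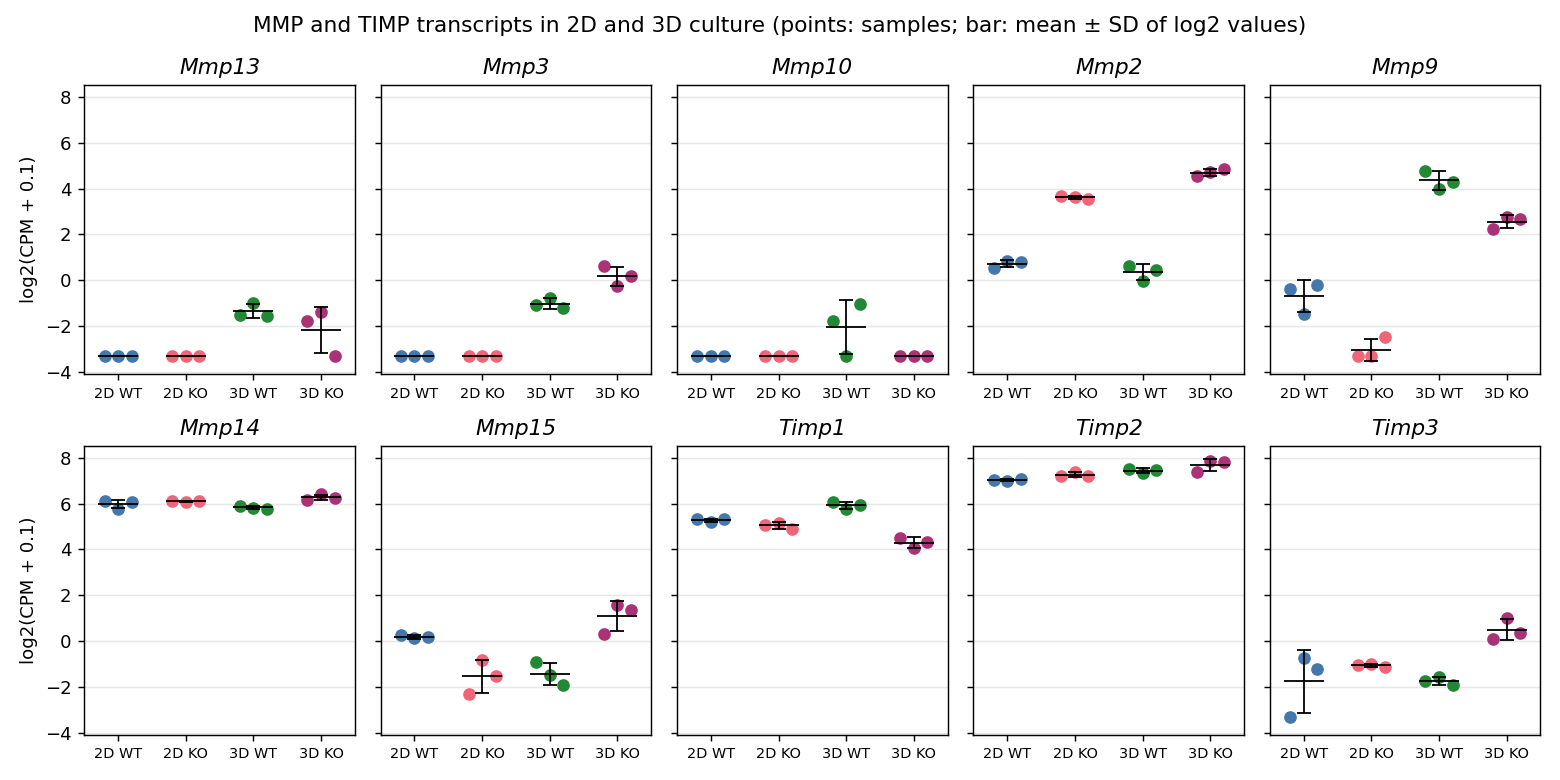
Levels of the 10 members in the 2D/3D experiment, with 1 panel per gene. The vertical axis is log2(CPM + 0.1), each point is a sample, and the bar is the mean ± SD of the 3 samples of a group. Mmp9 is higher in 3D than in 2D in both genotypes, Mmp2 is higher in Cxcl5-/- than in WT cells in both cultures, and Timp1 is highest in 3D WT and lowest in 3D Cxcl5-/- cells.

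The second question was how the members differed between Cxcl5-/- and WT cells. In 2D culture Mmp2 was the only tested member that was higher in Cxcl5-/-, at 12.8, 12.3 and 11.5 CPM against 1.35, 1.70 and 1.64 CPM. The groups did not overlap and the difference was 7.75-fold (2.95 ± 0.17, edgeR adjusted p = 1.43e-07). Mmp9 was lower (−4.34 ± 0.73, edgeR adjusted p = 0.0018), as was Mmp15 (−1.94 ± 0.49, edgeR adjusted p = 0.0276). The Mmp15 call was lost without any one of the 2D WT libraries or without 2D Cxcl5-/- replicate 1 or 3 (edgeR adjusted p up to 0.106). Mmp14, Timp1, Timp2 and Timp3 did not pass the test, with log2 fold changes between −0.22 and 0.40. The 1 higher and 2 lower among 9 tested members stand beside 3.86% higher and 3.17% lower of all genes tested, 7.03% in either direction.

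In 3D culture the difference in Mmp2 was larger. It was at 1.45, 0.864 and 1.27 CPM in WT and at 23.1, 26.0 and 28.7 CPM in Cxcl5-/- spheroids, a 21.5-fold difference without overlap (4.42 ± 0.18, edgeR adjusted p = 1.31e-09). The other gelatinase went the other way, with Mmp9 at 27.5, 15.6 and 19.6 CPM in WT and at 4.62, 6.67 and 6.23 CPM in Cxcl5-/- spheroids (−1.84 ± 0.34, edgeR adjusted p = 0.000597). Mmp14, which cleaves the MMP2 proenzyme, was higher in Cxcl5-/- spheroids, at 71.8, 84.4 and 76.7 CPM against 59.8, 56.2 and 54.2 CPM (0.45 ± 0.09, edgeR adjusted p = 0.00139). Mmp15 was also higher (2.92 ± 0.50, edgeR adjusted p = 0.000325).

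Mmp3 was low in both genotypes and higher in Cxcl5-/- spheroids (1.42 ± 0.45, edgeR adjusted p = 0.0269), a call lost without replicate 1 or 3 of either 3D group (edgeR adjusted p up to 0.134). Mmp13 did not pass the test (−0.93 ± 1.07, edgeR adjusted p = 0.516). Among the inhibitors, Timp1 was lower in Cxcl5-/- spheroids, at 22.7, 16.4 and 20.1 CPM against 66.4, 54.2 and 61.8 CPM, with no overlap (−1.62 ± 0.12, edgeR adjusted p = 2.28e-07). Timp3 was higher, at 0.978, 1.89 and 1.19 CPM against 0.194, 0.234 and 0.166 CPM (2.77 ± 0.71, edgeR adjusted p = 0.00584). Timp2 did not pass the test (0.26 ± 0.12, edgeR adjusted p = 0.0833). It passed with library totals, without a count filter and with 10 counts in every sample. It also passed in 2 of the 12 edgeR fits that each left out 1 library. In all, 5 of the 9 tested members rose and 2 fell in 3D Cxcl5-/- cells, beside 19.7% higher and 25.3% lower of all genes tested (45% in all), and the members' median was 0.45 beside −0.04 over all genes.

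Marker genes of other cell states moved with the same groups. The summed level of the fixed fibroblast marker list was 163 to 176 CPM in 3D WT and 440 to 489 CPM in 3D Cxcl5-/- spheroids, against 178 to 196 CPM over the 2D libraries. The summed epithelial list ran the other way, at 839 to 1084 CPM in 3D WT and 190 to 222 CPM in 3D Cxcl5-/- spheroids. The sums hide members that went the other way. Of 6 fibroblast markers tested, 3 rose (Pdgfra, Pdgfrb and Acta2) and 2 fell (Dcn and Lum), and of 4 epithelial markers 1 rose (Krt7) and 3 fell (Krt8, Krt18 and Krt19). Their part in the results was not tested. The samples were cultures of the cancer line, with no other cell type added. In bulk RNA, fewer cells in a given state and less RNA per cell cannot be told apart.

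The interaction term tested whether the Cxcl5-/- difference itself differed between 3D and 2D. It passed for 3 of the members with an estimable term, 2 positive and 1 negative, beside 11.1% positive and 16.1% negative (27.2% in all) of all genes tested. The difference in Mmp2 was larger in 3D by 1.47 ± 0.23 on the log2 scale (edgeR adjusted p = 0.000469). The difference in Mmp15 moved from below to above 0, by 4.86 ± 0.70 (edgeR adjusted p = 0.000223), and that in Timp1 was more negative in 3D, by −1.40 ± 0.17 (edgeR adjusted p = 5.97e-05). For Mmp9 the smaller deficit in 3D stood next to the threshold (2.50 ± 0.88, edgeR adjusted p = 0.0501), with 5 Mmp9 counts in the 2D Cxcl5-/- group. It passed in DESeq2 (DESeq2 adjusted p = 0.00539), with library totals, without a count filter and with entries of a symbol summed. Of 11 edgeR fits that each left out 1 library, it passed in 3, as without 2D WT replicate 2 (edgeR adjusted p = 0.0197). Mmp14 also passed without 2D WT replicate 2 (edgeR adjusted p = 0.0271, against 0.066 with all libraries), which brought the count to 5.

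The third question was how the members differed between Cxcl5-/- spheroids with and without mutant Hif1a or Myc. The WT and Cxcl5-/- spheroids of this experiment were separate samples from those above. Their libraries held 41542533 to 43890492 counts, and those of the overexpression lines held 51419869 to 64872036. In comparisons between these sets, cell line and library depth cannot be told apart. Here 9 of the 10 members passed the test between Cxcl5-/- and WT, 5 higher and 4 lower, beside 17.6% higher and 24.3% lower (41.9% in all) of all genes tested. Mmp10 held no counts in the Cxcl5-/- or MycOE libraries, so against WT or Hif1aOE it could only be called lower there. The median of the members was 0.95, beside −0.30 over all genes. Of the 7 members called in the 2D/3D experiment and the 9 called here, 6 were called in both, and all 6 in the same direction, with Mmp2, Mmp14, Mmp15 and Timp3 higher and Mmp9 and Timp1 lower in Cxcl5-/- spheroids. Of the 21058 genes tested in both experiments, 30.4% were called in both, and 95.9% of those had the same direction.

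Comparisons with a shared group are given side by side, since Hif1aOE Cxcl5-/- and MycOE Cxcl5-/- spheroids were set against the same Cxcl5-/- samples. Against Cxcl5-/-, 4 members were higher and 5 lower with Hif1a (20.5% and 15% of all genes, 35.5% together), and 1 was higher and 4 lower with Myc (21.6% and 18% of all genes, 39.6% together). The members' medians were 0.00 and −1.21, beside 0.16 and 0.11 over all genes. Between the overexpression lines, 2 members were higher and 7 lower with Myc than with Hif1a, beside 9.54% higher and 9.73% lower (19.3% in all) of all genes tested. Against WT, 4 members were higher and 3 lower with Hif1a, beside 13.9% and 10.3% (24.2% in all), and 2 were higher and 5 lower with Myc, beside 17.1% and 14.7% (31.8% in all).

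**Figure D2:**
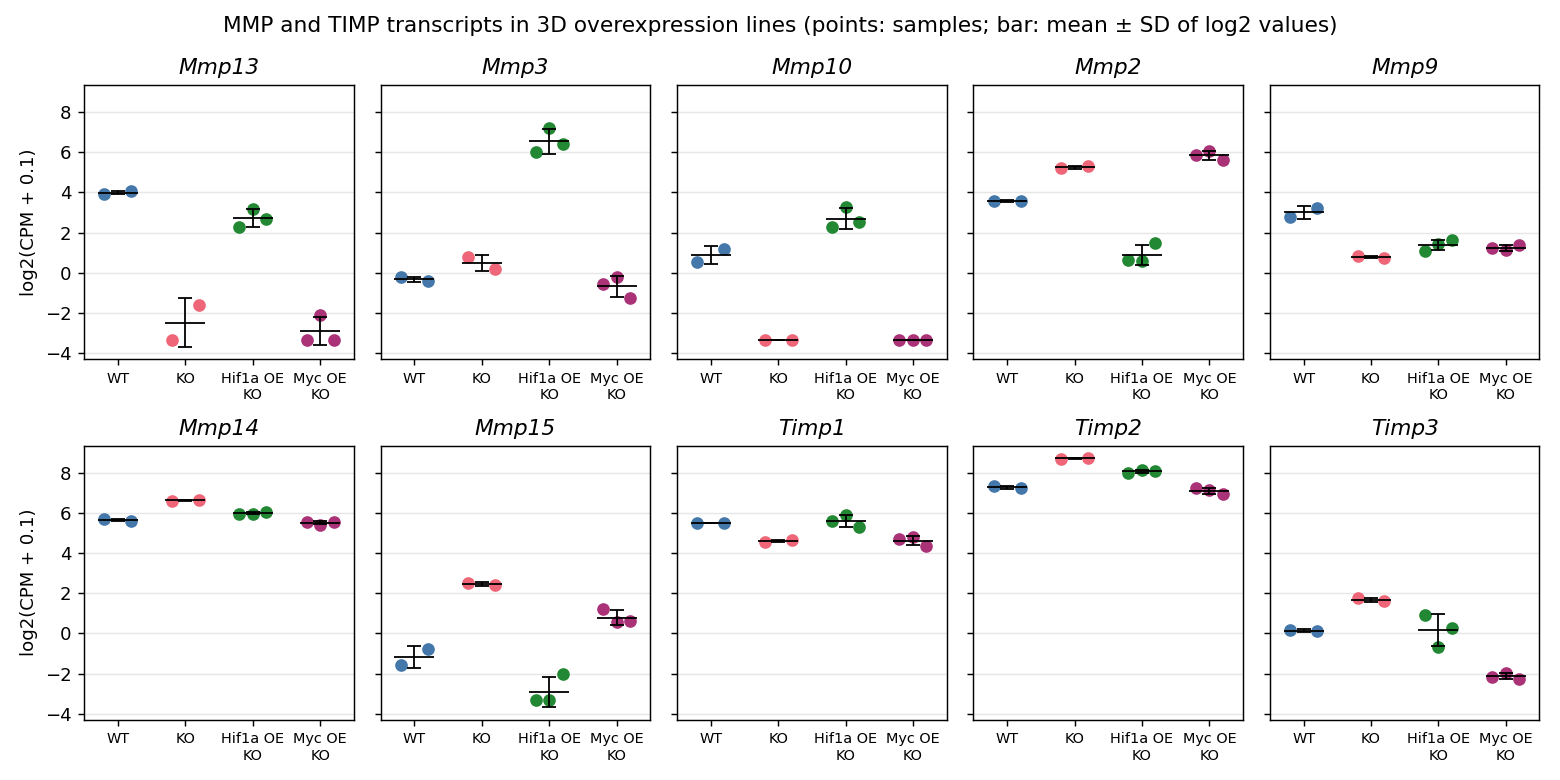
Levels of the 10 members in the overexpression experiment, with 1 panel per gene. The vertical axis is log2(CPM + 0.1), each point is a sample, and the bar is the mean ± SD of the 2 or 3 samples of a group. Mmp3 and Mmp10 are highest and Mmp2 and Mmp15 lowest in Hif1aOE Cxcl5-/- spheroids, and Timp3 is lowest in MycOE Cxcl5-/- spheroids.

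The stromelysins showed the largest rises with Hif1a. Mmp3, which also cleaves the proenzymes of other MMPs, was at 0.750 and 0.652 CPM in WT, at 1.62 and 1.06 CPM in Cxcl5-/-, and at 64.3, 149 and 83.4 CPM in Hif1aOE Cxcl5-/- spheroids. The Hif1aOE samples were above all others, 73.8-fold higher than Cxcl5-/- (6.21 ± 0.43, edgeR adjusted p = 1.42e-06) and also higher than WT (7.13 ± 0.46, edgeR adjusted p = 4.11e-06). With Myc, Mmp3 was at 0.571, 0.761 and 0.317 CPM, which did not pass the test against Cxcl5-/- (−1.31 ± 0.49, edgeR adjusted p = 0.0522). It passed in DESeq2 (DESeq2 adjusted p = 0.0243), in 5 further alternative fits, and in 5 of the 10 edgeR fits that each left out 1 library.

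Mmp10 was at 1.37 and 2.17 CPM in WT, at 4.73, 9.59 and 5.71 CPM in Hif1aOE Cxcl5-/-, and at 0 in every Cxcl5-/- and MycOE Cxcl5-/- library. Cxcl5-/- spheroids were thus at least 28.8-fold below WT (edgeR adjusted p = 0.00014), and Hif1aOE Cxcl5-/- spheroids at least 108-fold above Cxcl5-/- (edgeR adjusted p = 2.69e-05). The level with Hif1a also exceeded that in WT (1.91 ± 0.40, edgeR adjusted p = 0.0115), although this call was lost without WT replicate 1 (edgeR adjusted p = 0.071).

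The collagenase Mmp13 followed the same order of groups except at the top. It was at 15.0 and 16.4 CPM in WT, at 0 and 0.223 CPM in Cxcl5-/-, at 4.71, 8.90 and 6.32 CPM with Hif1a, and at 0, 0.130 and 0 CPM with Myc. It fell in Cxcl5-/- against WT (−7.09 ± 0.81, edgeR adjusted p = 4.46e-05) and rose with Hif1a (5.85 ± 0.78, edgeR adjusted p = 0.000129). All Hif1aOE samples lay below both WT samples, a difference that did not pass the test (−1.24 ± 0.49, edgeR adjusted p = 0.0863). The change with Myc against Cxcl5-/- did not pass (−1.43 ± 1.28, edgeR adjusted p = 0.395).

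Among the 10 genes of the chromosome 9 cluster, which were listed by position, 7 were tested in this experiment. Against WT, 3 were lower in Cxcl5-/- spheroids (24.3% of all genes tested), namely Mmp13, Mmp10 and Mmp8, a neutrophil collagenase. Against Cxcl5-/-, 4 were higher with Hif1a (20.5% of all genes tested), namely Mmp3, Mmp10, Mmp13 and Mmp8. Mmp10 and Mmp8 held no counts in Cxcl5-/- libraries, so they could only be called in these directions. With Myc the gene nearest to the threshold was Mmp3 (edgeR adjusted p = 0.0522). Mmp8 was at 0 in every Cxcl5-/- and MycOE library and averaged 0.437 CPM in WT and 0.432 CPM with Hif1a, at least 7.01-fold above the floor of Cxcl5-/- (edgeR adjusted p = 0.0181).

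**Figure D3:**
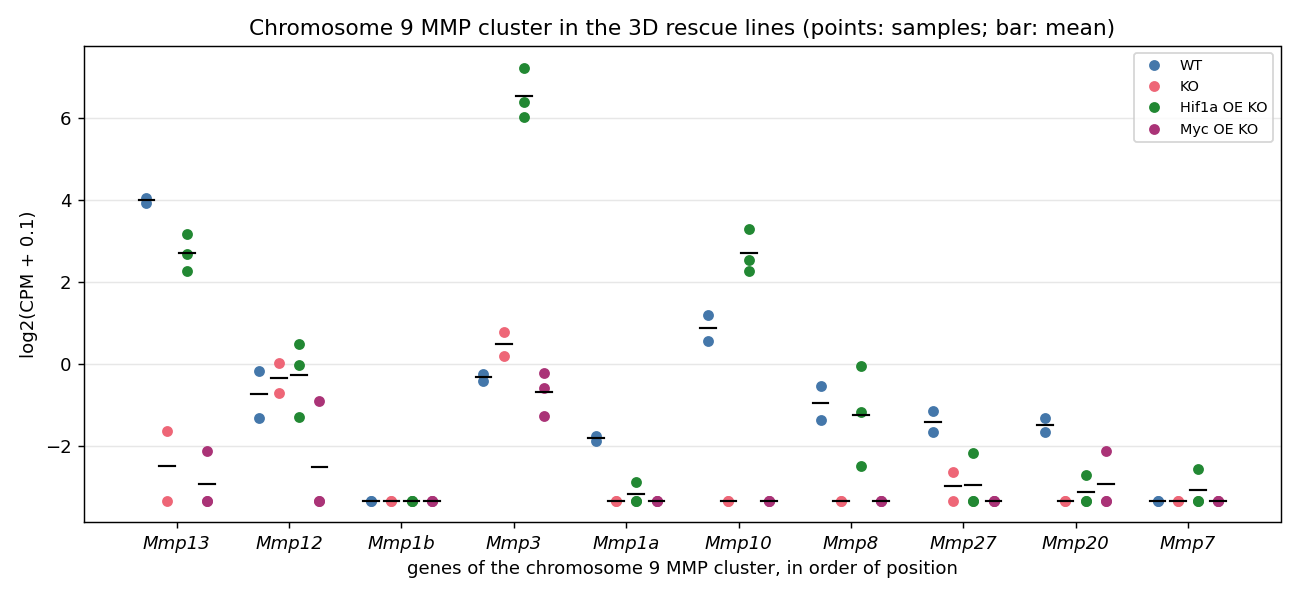
Levels of the 10 genes of the chromosome 9 MMP cluster in the overexpression experiment, in the order of their positions along the chromosome. The vertical axis is log2(CPM + 0.1), points are samples and bars are group means. Mmp3 and Mmp10 stand highest in Hif1aOE Cxcl5-/- spheroids and Mmp13 in WT spheroids, while most other cluster genes stay near the floor.

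The gelatinases did not follow that order. Mmp2 was at 11.6 and 11.9 CPM in WT, at 36.4 and 39.6 CPM in Cxcl5-/-, at 1.43, 1.38 and 2.69 CPM with Hif1a, and at 58.3, 66.7 and 48.1 CPM with Myc. No 2 groups overlapped. It was higher in Cxcl5-/- than in WT (1.69 ± 0.24, edgeR adjusted p = 0.000194) and 20.7-fold lower with Hif1a than in Cxcl5-/- (−4.37 ± 0.23, edgeR adjusted p = 3.05e-07), which also placed it below WT (−2.68 ± 0.23, edgeR adjusted p = 2.97e-05). The rise with Myc over Cxcl5-/- was small (0.60 ± 0.21, edgeR adjusted p = 0.0401), and it was lost without either Cxcl5-/- library or without MycOE replicate 1 or 2 (edgeR adjusted p up to 0.186).

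Mmp9 was at 6.75 and 9.26 CPM in WT, at 1.68 and 1.56 CPM in Cxcl5-/-, at 2.04, 2.57 and 2.96 CPM with Hif1a, and at 2.24, 2.07 and 2.54 CPM with Myc. It was lower in Cxcl5-/- than in WT (−2.30 ± 0.27, edgeR adjusted p = 4.87e-05). The samples of both overexpression lines lay just above the Cxcl5-/- samples, without passing the test for Hif1a (0.64 ± 0.24, edgeR adjusted p = 0.0615) or for Myc (0.49, edgeR adjusted p = 0.13), and both lines stayed below WT (−1.66 ± 0.23, edgeR adjusted p = 0.000483, and −1.81 ± 0.23, edgeR adjusted p = 0.000154).

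Of the membrane-type proteases, Mmp14 was at 51.4 and 48.5 CPM in WT and at 97.3 and 99.2 CPM in Cxcl5-/- spheroids (0.97 ± 0.09, edgeR adjusted p = 7.39e-06). It fell with Hif1a to 62.4, 61.1 and 66.7 CPM (−0.63 ± 0.08, edgeR adjusted p = 6.99e-05) and with Myc to 46.5, 42.7 and 47.1 CPM (−1.11 ± 0.08, edgeR adjusted p = 1.07e-06). The MycOE samples lay below both WT samples without passing the test (−0.14, edgeR adjusted p = 0.207). With Hif1a it stayed above WT (0.34 ± 0.08, edgeR adjusted p = 0.0102), a call lost without either WT library (edgeR adjusted p up to 0.122). Both results against WT depended on the method. With DESeq2, its size factors, library totals or 10 counts in every sample, the lower level with Myc passed and the higher level with Hif1a did not. Mmp15 was at 0.243 and 0.478 CPM in WT, at 5.60 and 5.14 CPM in Cxcl5-/-, at 0, 0 and 0.145 CPM with Hif1a, and at 2.22, 1.37 and 1.43 CPM with Myc. It was higher in Cxcl5-/- than in WT (3.89 ± 0.73, edgeR adjusted p = 0.00152) and lower with Hif1a than in Cxcl5-/- (−6.71 ± 0.77, edgeR adjusted p = 4.23e-05). The lower level with Myc (−1.68 ± 0.56, edgeR adjusted p = 0.034) was lost without either Cxcl5-/- library or without MycOE replicate 2 or 3 (edgeR adjusted p up to 0.163).

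Of the inhibitors, Timp1 was at 45.8 and 45.7 CPM in WT, at 23.2 and 24.7 CPM in Cxcl5-/-, at 48.5, 58.5 and 39.6 CPM with Hif1a, and at 25.6, 27.6 and 20.3 CPM with Myc. It was lower in Cxcl5-/- than in WT (−0.93 ± 0.17, edgeR adjusted p = 0.00149) and rose with Hif1a (1.03 ± 0.16, edgeR adjusted p = 0.000451) to a range that enclosed the WT samples (0.10 ± 0.16 against WT, edgeR adjusted p = 0.692). With Myc it did not pass the test (0.03 ± 0.16, edgeR adjusted p = 0.923).

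Timp2 was at 159 and 149 CPM in WT, at 414 and 421 CPM in Cxcl5-/-, at 252, 279 and 271 CPM with Hif1a, and at 151, 139 and 121 CPM with Myc. It was higher in Cxcl5-/- than in WT (1.44 ± 0.11, edgeR adjusted p = 2.46e-06). In the 2D/3D experiment the same contrast was smaller, in the same direction, and did not pass the test (0.26 ± 0.12, edgeR adjusted p = 0.0833). That result depended on the method. With Hif1a, Timp2 was lower than in Cxcl5-/- (−0.64 ± 0.10, edgeR adjusted p = 0.000333) and still above WT (0.80 ± 0.10, edgeR adjusted p = 0.000313). With Myc it fell by 1.61 ± 0.10 on the log2 scale (edgeR adjusted p = 4.65e-07) and overlapped WT. The difference from WT did not pass the test (−0.17, edgeR adjusted p = 0.213). With DESeq2, its size factors, library totals or 10 counts in every sample, the lower level with Myc than in WT passed.

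Timp3 was at 1.04 and 0.978 CPM in WT, at 3.28 and 2.92 CPM in Cxcl5-/-, at 1.80, 0.524 and 1.12 CPM with Hif1a, and at 0.127, 0.152 and 0.106 CPM with Myc. The MycOE samples were below all others (−4.58 ± 0.50 against Cxcl5-/-, edgeR adjusted p = 2.33e-05, and −2.96 ± 0.51 against WT, edgeR adjusted p = 0.00125). With Hif1a, Timp3 did not pass the test against WT (0.19 ± 0.44, edgeR adjusted p = 0.791). The higher level in Cxcl5-/- than in WT (1.62 ± 0.48, edgeR adjusted p = 0.0212) was lost without any one of those 4 libraries (edgeR adjusted p up to 0.0989). The fall with Hif1a (−1.43 ± 0.42, edgeR adjusted p = 0.0205) was lost without either Cxcl5-/- library or without Hif1aOE replicate 3 (edgeR adjusted p up to 0.124). Timp3 (chromosome 10, 86300372 to 86349506) overlaps Syn3 on the opposite strand over 1733 exonic bases, so reads of these genes can be told apart only if the counting used strand, which was not given in the sources used here.

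Compared directly, Hif1aOE and MycOE Cxcl5-/- spheroids differed in 9 of the 10 members. Mmp2 was higher with Myc than with Hif1a (4.97 ± 0.23, edgeR adjusted p = 1.32e-07), as was Mmp15 (5.03 ± 0.74, edgeR adjusted p = 0.000614). Mmp3 (−7.51 ± 0.39, edgeR adjusted p = 2.82e-07), Mmp13 (−7.28 ± 0.75, edgeR adjusted p = 4.58e-05) and Timp3 (−3.15 ± 0.48, edgeR adjusted p = 0.000733) were lower with Myc, and Mmp10 was at least 110-fold lower (edgeR adjusted p = 2e-05). Timp1, Timp2 and Mmp14 were lower with Myc by 1.00, 0.97 and 0.48 on the log2 scale. Mmp9 did not pass the test (−0.14, edgeR adjusted p = 0.724).

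In this experiment too the marker sums moved with the groups. The fibroblast list summed to 81.6 to 84.7 CPM in WT, 494 to 506 CPM in Cxcl5-/-, 136 to 176 CPM with Hif1a and 404 to 440 CPM with Myc. The epithelial list summed to 823 to 865 CPM in WT, 258 to 272 CPM in Cxcl5-/-, 687 to 820 CPM with Hif1a and 244 to 287 CPM with Myc. Of 7 fibroblast markers tested, 6 rose and 0 fell in Cxcl5-/- against WT, 0 rose and 6 fell with Hif1a against Cxcl5-/-, and 1 rose (Acta2) and 3 fell (Dcn, Lum and Col1a1) with Myc. Of 5 epithelial markers, 0 rose and 3 fell in Cxcl5-/-, 4 rose and 0 fell with Hif1a, and 2 rose and 0 fell with Myc. Their part in the results was not tested.

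**Figure D4:**
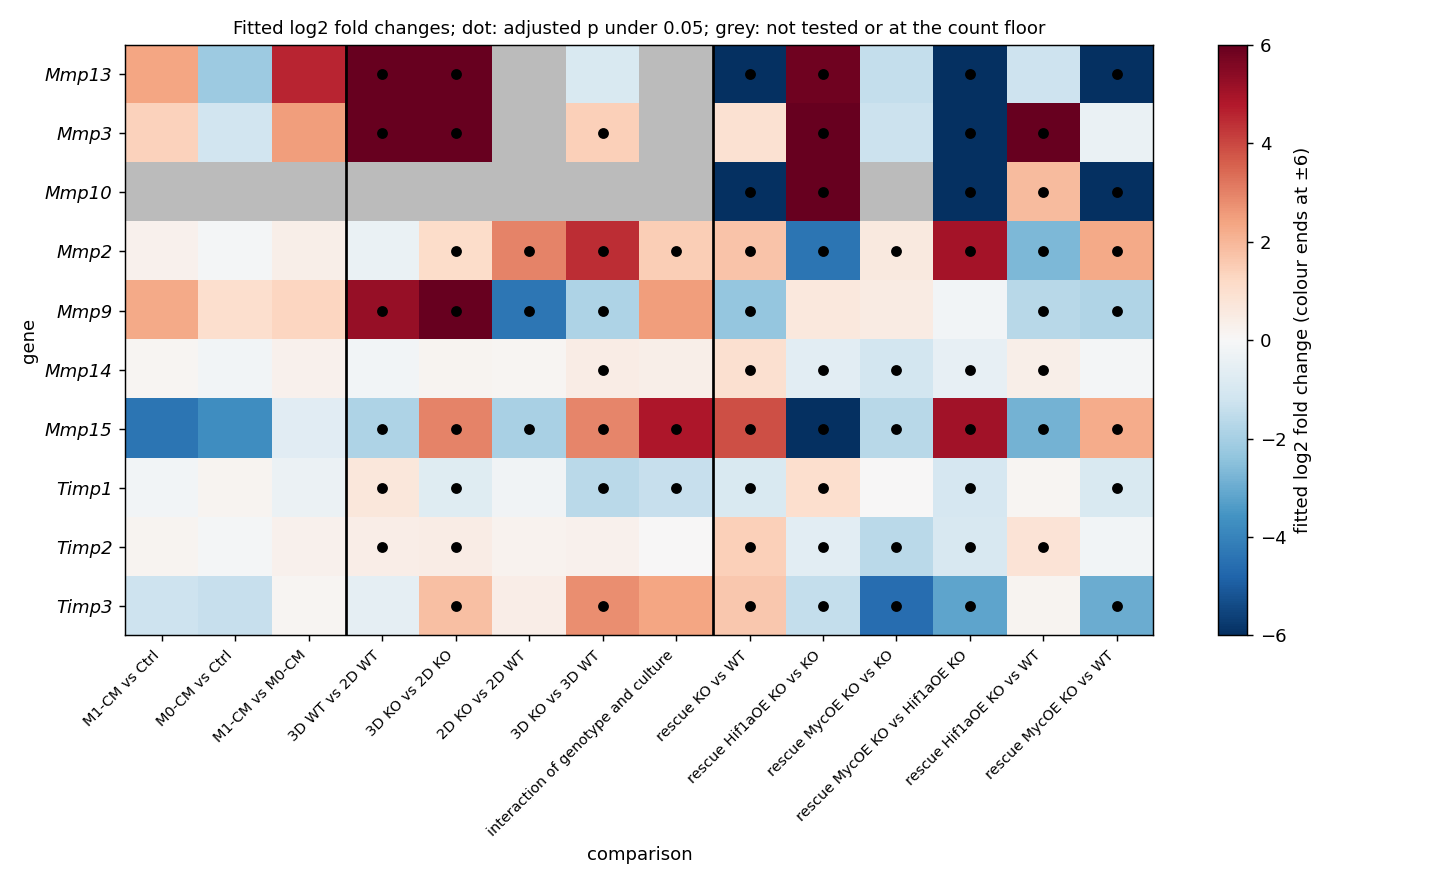
Fitted log2 fold changes of the 10 members (rows) in the 14 comparisons (columns). Red is higher and blue lower in the group named first, the colour scale ends at 6 in either direction, dots mark an edgeR adjusted p under 0.05, and grey marks members that were not tested or that were at the count floor in both groups. KO stands for Cxcl5-/-, rescue for the overexpression experiment, and the colour of a member with no counts in one group depends on the fit's prior count. The conditioned medium comparisons hold 0 dots, and Mmp2 is called in every comparison of Cxcl5-/- with WT cells.

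The fourth question was whether macrophage-conditioned medium changed the members in WT spheroids. No member passed the test in any of the 3 comparisons (edgeR, 0 of 9 tested), and of all genes tested 0.0156% were called between M1-CM and Ctrl, 0% between M0-CM and Ctrl and 0.0156% between M1-CM and M0-CM. The same edgeR tests gave an unadjusted p under 0.05 for 2, 1 and 2 members in these comparisons. DESeq2, the method the study used, called 1, 0 and 0 members. Of all genes, it called 75 higher and 31 lower of 20852 between M1-CM and Ctrl. It called 18 and 4 of 21440 between M0-CM and Ctrl, and 22 and 12 of 19091 between M1-CM and M0-CM. The exception in DESeq2 was Mmp9, which was at 16.8, 16.4 and 9.52 CPM in Ctrl, at 30.7, 26.6 and 28.2 CPM with M0-CM, and at 27.3, 113 and 67.8 CPM with M1-CM. Every M0-CM and M1-CM sample was above every Ctrl sample, but the 3 M1-CM samples were spread widely. The difference of M1-CM against Ctrl was 2.28 ± 0.44 (edgeR adjusted p = 0.274, DESeq2 adjusted p = 7.36e-05), so its call depends on the method. Without M1-CM replicate 1 the difference was 2.66 and passed the test (edgeR adjusted p = 0.0358).

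Mmp3 in the same spheroids was at 3.91, 0 and 2.59 CPM in Ctrl and at 7.17, 3.65 and 5.94 CPM with M1-CM, ranges that overlapped. Mmp13 was at 0.768, 0.577 and 0.919 CPM with M1-CM, above the single Ctrl sample with counts (0.436 CPM) and the single M0-CM sample with counts (0.0877 CPM), and it did not pass the test. Mmp15 was at 0.694, 2.04 and 1.25 CPM in Ctrl, at 0.292, 0 and 0 CPM with M0-CM and at 0, 0 and 0.184 CPM with M1-CM, a non-overlapping pair of ranges that did not pass either. Mmp2, Mmp14, Timp1, Timp2 and Timp3 overlapped between M1-CM and Ctrl, with Timp3 at or below 1.15 CPM in every sample. Mmp10 held counts in 1 Ctrl sample (0.161 CPM) and in no other sample of this experiment, and it was not tested. Cxcl5 itself was higher with M1-CM than with Ctrl (2.76, edgeR adjusted p = 0.000474).

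**Figure D5:**
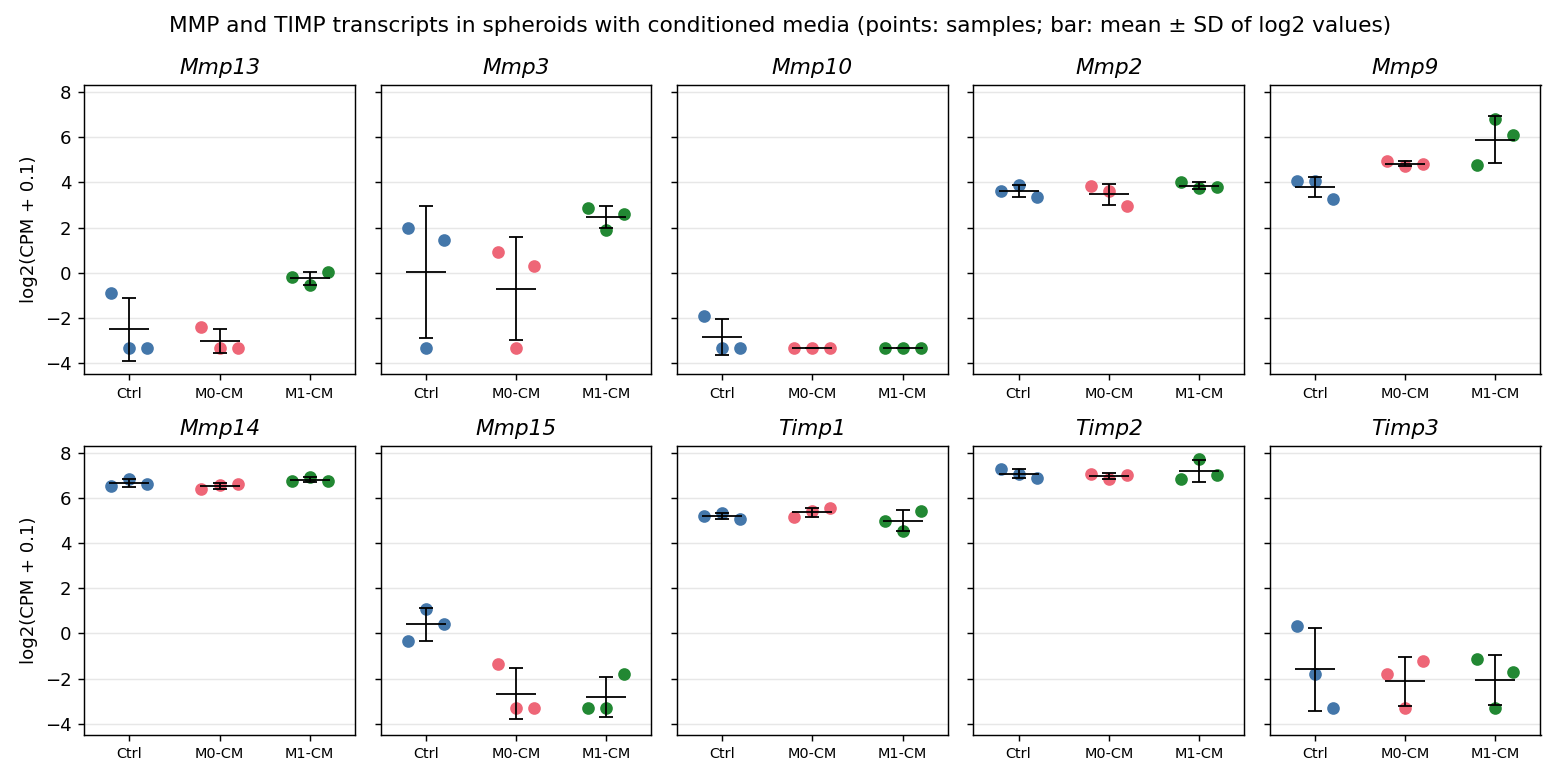
Levels of the 10 members in WT spheroids given control medium, M0-CM or M1-CM, with 1 panel per gene. The vertical axis is log2(CPM + 0.1), each point is a sample, and the bar is the mean ± SD of 3 samples. Mmp9 lies above Ctrl in every M0-CM and M1-CM sample, with the M1-CM samples spread from 27.3 to 113 CPM.

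To compare members with each other, levels were divided by exon length (CPM per kb, mean ± SD). In 3D WT spheroids of the 2D/3D experiment the order was Timp1 (68.5 ± 6.94), Timp2 (44.5 ± 3.31), Mmp14 (9.52 ± 0.481) and Mmp9 (5.91 ± 1.71), with every other member below 0.4. In 3D Cxcl5-/- spheroids it was Timp2 (53.3 ± 9.39), Timp1 (22.2 ± 3.57), Mmp14 (13.0 ± 1.07), Mmp2 (7.69 ± 0.829) and Mmp9 (1.65 ± 0.305). In each of those orders, neighbours differed by more than their SDs. With Hif1a, Mmp3 (54.8 ± 24.5) could not be ordered against Timp2 (68.7 ± 3.57) or Timp1 (55.0 ± 10.6), and these were followed by Mmp14 (10.6 ± 0.493) and by Mmp10 (3.88 ± 1.49) and Mmp13 (2.48 ± 0.790), which could not be ordered either. With Myc the order was Timp2 (35.1), Timp1 (27.6), Mmp2 (17.1) and Mmp14 (7.63).

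Levels of WT spheroids also differed between experiments. Mmp2 ranged from 0.864 to 1.45 CPM in the 3D WT samples of the 2D/3D experiment, from 11.6 to 11.9 CPM in those of the overexpression experiment and from 10.2 to 14.5 CPM in the Ctrl samples of the conditioned medium experiment. Mmp13 was at 15.0 and 16.4 CPM in the overexpression experiment and at or below 0.436 CPM in the other two. The tables were normalised separately, so these levels are set side by side without a test. The study's methods name the same medium, complete DMEM, for the WT spheroids of the 2D/3D and overexpression experiments. The Ctrl spheroids received their own control medium, so for them experiment and medium cannot be told apart.

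Other extracellular proteases were counted from lists fixed by function, with earlier results of these data known. Of the other MMPs, 4 of 8 tested rose and 0 fell in 3D Cxcl5-/- spheroids relative to WT, beside 19.7% and 25.3% of all genes tested. Among the higher ones were Mmp19 (1.66, edgeR adjusted p = 1.42e-07) and Mmp11 (0.95, edgeR adjusted p = 4.55e-06). Among 13 tested in the overexpression experiment, 3 were higher and 4 lower in Cxcl5-/-, beside 17.6% and 24.3% of all genes tested. Mmp19 (1.81, edgeR adjusted p = 4.33e-06) and Mmp11 (1.73, edgeR adjusted p = 1.67e-07) were again higher. Against Cxcl5-/-, 1 of the 13 was higher and 4 lower with Hif1a, beside 20.5% and 15% of all genes tested. With Myc, 0 were higher and 4 lower, beside 21.6% and 18%. Mmp19 was among the lower genes in both lines (−1.57 and −1.32).

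The plasminogen system makes plasmin, a protease that can cleave MMP proenzymes. Of its 7 tested genes, 2 rose and 5 fell in 3D Cxcl5-/- spheroids relative to WT, beside 19.7% and 25.3% of all genes tested. For the overexpression experiment, the shares over all genes are those of the paragraph above. Plau, encoding urokinase, was at 14.1, 15.4 and 15.7 CPM in 3D WT and at 47.3, 50.1 and 48.4 CPM in 3D Cxcl5-/- spheroids (1.69, edgeR adjusted p = 4.61e-09). Its receptor Plaur fell (−2.23, edgeR adjusted p = 1.07e-07). Of 10 tested in the overexpression experiment, 2 were higher and 6 lower in Cxcl5-/-, with Plau (1.33, edgeR adjusted p = 5.5e-05) and Plaur (−3.14, edgeR adjusted p = 2.2e-06) in those directions. Against Cxcl5-/-, 4 were higher and 2 lower with Hif1a and 5 higher and 2 lower with Myc. In both lines Plau fell (−1.48 and −1.45).

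Genes with the most similar pattern over the 12 samples of the 2D/3D experiment were named by Pearson's r of log2 CPM, as a description. These samples fall into 4 groups, so r mostly follows the group means, and the value over the 10 samples of the overexpression experiment is given after it. The closest genes were Slc14a1 for Mmp2 (0.997, then −0.422), Ifit3 for Mmp3 (0.996, then 0.125), Dennd3 for Mmp9 (0.989, then −0.876), Dmpk for Mmp14 (0.937, then 0.619), Fxyd5 for Timp1 (0.988, then 0.68), Ptprs for Timp2 (0.965, then 0.923) and Zfp398 for Timp3 (0.954, then 0.569). The closest gene to Mmp13 was 1600020E01Rik (0.916, then −0.214) and the closest to Mmp15 was Gm44639 (0.939, then 0.464). For Mmp2, Mmp9 and Mmp13 this value was negative.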

How the data were processed

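RNA was measured by total RNA sequencing (a stranded kit) of 31 samples. The authors aligned reads with HISAT2 and assembled transcripts with StringTie on mm10, per the labels and the study's methods, and deposited 3 tables of raw counts per gene. The annotation release and the counting settings were not given in the sources used here. All groups of a table were fitted together with edgeR 4.0.16 (R 4.3.3) by the quasi-likelihood test, after TMM normalisation and filterByExpr, which left 19207, 21367 and 28730 genes in the conditioned medium, 2D/3D and overexpression tables. P-values were adjusted (Benjamini-Hochberg) over all genes tested, and a gene was called at an adjusted p under 0.05. Mmp10 failed the filter in the first 2 tables, so 9, 9 and 10 members were tested. SEs came from the fold change and its F statistic. Where a group held no counts of a gene, each of its libraries was set at 3 counts and the fold is a lower bound. These cover counting error only.

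The text was to name the 10 members, the targeted genes, genes of fixed protease lists that were called in the comparison, and the genes most similar in pattern. The members and lists were chosen with earlier results of these data known. The fits were tested on simulated data. Alternatives were DESeq2 1.42.0, its size factors, scaling by library totals, other count filters, a fold limit, a replicate block and leaving out each library. No value column was unused. Lengths and positions came from GENCODE M21 on GRCm38. The values of 1 gene of the protease lists are not reported here.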

Additional observations from a re-analysis of the deposited data

Results flagged for a closer look

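For 3 members the difference between Cxcl5-/- and WT cells was not the same in 3D as in 2D culture, by an interaction term fitted in edgeR over the 12 samples of that experiment. For Mmp2 the term was 1.47 on the log2 scale (edgeR adjusted p = 0.000469), with both differences positive. For Mmp15 it was 4.86 (edgeR adjusted p = 0.000223), with a negative difference in 2D and a positive one in 3D. For Timp1 it was −1.40 (edgeR adjusted p = 5.97e-05), with a 2D difference that did not pass the test and a negative one in 3D. The 3D Cxcl5-/- libraries held more Cxcl5 counts than 3D WT, although such counts report neither the edit nor the protein. The fibroblast and epithelial marker sums moved with the same groups. The part of either in these differences was not tested.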

How the results depend on the processing

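No called member value changed sign under the alternatives run. Of 127 member values, 16 changed sign under at least 1 of them, and none of these was called, as reported or with its sign changed. Requiring 10 counts in every sample left fewer members to test and gave 2 calls for 3D against 2D WT, 4 for 3D against 2D Cxcl5-/-, 1 for Cxcl5-/- against WT in 2D and 4 in 3D. It removed Mmp3, Mmp9, Mmp13, Mmp15 and Timp3 from the 2D/3D experiment. Of 15430 genes then tested, 3730 were higher and 4468 lower for 3D against 2D WT, and 5297 and 5145 for Cxcl5-/-. For Cxcl5-/- against WT they were 789 and 576 in 2D, and 4353 and 4238 in 3D. For the overexpression groups that filter gave 5 calls for Cxcl5-/- against WT, 5 for Hif1aOE against Cxcl5-/-, 5 for MycOE against Hif1aOE and 4 for Hif1aOE against WT. It removed Mmp10, Mmp13, Mmp15 and Timp3 from that experiment. In the same order, 4463, 4948, 2878 and 2727 of 16095 genes were higher, and 4747, 4698, 2819 and 2655 were lower. DESeq2 called 1 member between M1-CM and Ctrl. It called 9 between 3D and 2D Cxcl5-/-, 4 for the interaction, 6 for MycOE against Cxcl5-/-, 6 for Hif1aOE against WT and 9 for MycOE against WT, where the reported counts are 8, 3, 5, 7 and 7. Scaling by library totals gave 5 interaction calls, and no count filter gave 3 calls for MycOE against Cxcl5-/-.

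Leaving out 1 library at a time gave 0 to 1 calls for M1-CM against Ctrl and 0 for both other conditioned medium comparisons. It gave 6 to 7 calls for 3D against 2D WT, 7 to 8 for 3D against 2D Cxcl5-/-, 2 to 3 for Cxcl5-/- against WT in 2D, 6 to 9 in 3D and 3 to 5 for the interaction. For the overexpression groups the ranges were 8 to 10 for Cxcl5-/- against WT, 8 to 10 for Hif1aOE and 3 to 6 for MycOE against Cxcl5-/-, 9 to 9 for MycOE against Hif1aOE, and 5 to 7 for Hif1aOE and 6 to 7 for MycOE against WT. The 3 calls for MycOE against Cxcl5-/- came without Cxcl5-/- replicate 1 or 2. Mmp15 lost its call for Hif1aOE against WT (adjusted p up to 0.209) and for MycOE against WT (up to 0.168).

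Same-numbered samples of different groups had mean correlations of 0.0369, 0.0247 and 0.00408 in the conditioned medium, 2D/3D and overexpression tables, after group means were removed. They were above 0.1 in 3 of 9, 1 of 18 and 0 of 13 pairs, and ran from −0.236 to 0.359 in the conditioned medium table. Differently numbered samples were not compared, so this check cannot tell whether the numbers pair the samples. With a replicate block the calls were 0 in each conditioned medium comparison, 6 and 8 for 3D against 2D in WT and Cxcl5-/-, 3 and 6 for Cxcl5-/- against WT in 2D and 3D, and 3 for the interaction. For the overexpression groups the block gave 9, 9, 6, 9, 7 and 7 calls for Cxcl5-/- against WT, Hif1aOE and MycOE against Cxcl5-/-, MycOE against Hif1aOE, and Hif1aOE and MycOE against WT. The block lost Mmp3 in 3D Cxcl5-/- against WT and added Mmp3 in MycOE against Cxcl5-/-.

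Scaling by library totals shifted the balance of all genes. Cxcl5-/- against WT in 3D went from 4218 higher and 5397 lower to 7671 and 2445, with the median moving from −0.04 to 0.35. MycOE against WT went from 4903 and 4225 to 2477 and 6217, with the median moving from −0.17 to −0.46. Low counts limit Mmp3, Mmp10, Mmp13, Mmp15 and Timp3 in many groups.

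Sign changes on leaving out 1 library had these log2 ranges. For M1-CM against Ctrl they were −0.43 to 0.035 (Timp1), −0.16 to 0.33 (Timp2) and −2.11 to 0.93 (Timp3). For M0-CM against Ctrl they were −0.29 to 0.11 (Mmp2), −6.14 to 3.98 (Mmp13) and −2.19 to 0.81 (Timp3). For M1-CM against M0-CM they were −5.65 to 4.93 (Mmp15), −0.050 to 0.44 (Timp2) and −0.74 to 0.94 (Timp3). Timp3 ranged from −1.06 to 0.16 for 3D against 2D WT and from −0.12 to 1.10 for Cxcl5-/- against WT in 2D, and the Timp2 interaction from −0.081 to 0.12. Against Cxcl5-/-, Cxcl5 ranged from −0.054 to 0.12 with Hif1a, and Mmp13 from −5.54 to 4.11 and Timp1 from −0.053 to 0.15 with Myc. Hif1a ranged from −0.10 to 0.044 for MycOE against Hif1aOE. Against WT, Timp1 ranged from −0.062 to 0.23 and Timp3 from −0.29 to 0.53 with Hif1a.

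Other sign changes were small. With the replicate block, Timp3 was −0.019 for M1-CM against M0-CM. Cxcl5 for Hif1aOE against Cxcl5-/- was −0.0040 with DESeq2 size factors, −0.19 with library totals and −0.027 with 10 counts in every sample, and −0.13 for MycOE with library totals. Timp1 was −0.31 and −0.040 for MycOE against Cxcl5-/- with library totals and 10 counts, and −0.034, −0.048, −0.097 and −0.063 for Hif1aOE against WT with DESeq2, its size factors, library totals and 10 counts.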

Other observations

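Among other partners and inhibitors of MMPs, 0 of 8 tested genes rose and 4 fell in 3D Cxcl5-/- spheroids relative to WT. The shares of all genes tested were 19.7% and 25.3%. In the overexpression experiment 2 of 10 were higher and 5 lower, beside 17.6% and 24.3% of all genes. The tight junction gene Cldn1 fell in both (−8.72, edgeR adjusted p = 1.37e-08, and −8.77, edgeR adjusted p = 7.67e-07). Cldn1 rose with Hif1a (7.53, edgeR adjusted p = 2.3e-06) and with Myc (4.34, edgeR adjusted p = 0.000238) over Cxcl5-/- spheroids, whose libraries held 2 and 0 Cldn1 counts.

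Of ADAM and ADAMTS proteases, 4 of 10 tested rose and 3 fell in 3D Cxcl5-/- spheroids relative to WT, and 6 of 16 were higher and 8 lower in the overexpression experiment. The shares of all genes tested were 19.7% and 25.3% (45% in all), and 17.6% and 24.3% (41.9% in all). The same shares stand beside the cathepsin counts below. In the overexpression experiment Adam19 was at least 16.3-fold lower in Cxcl5-/- than in WT (edgeR adjusted p = 0.000712) and at least 35.0-fold higher with Hif1a than in Cxcl5-/- (edgeR adjusted p = 0.000199). Of cathepsins and other matrix-degrading enzymes, 3 of 8 rose and 1 fell in 3D Cxcl5-/- spheroids relative to WT, the lower one being Hpse, encoding heparanase (−4.34), which was higher with Hif1a than in Cxcl5-/- (3.09). Of 9 tested in the overexpression experiment, 3 were higher and 3 lower in Cxcl5-/- than in WT.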
